A study of Sus scrofa with 6 samples.

Results

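The genes described here are ribosome biogenesis and nucleolar genes of pig oocytes, measured in single cells of 2 brilliant cresyl blue (BCB) classes. They were chosen by symbol alone: every gene whose pig symbol begins with UTP, NOP, RRP or NOL and a digit, or with EXOSC, the genes IMP3 and IMP4, and LTV1, FBL, DKC1, BMS1, NCL and NPM1. Among reference genes, 52 met this rule, and 47 of them were found by gene ID among the 19300 genes listed in any oocyte. NCL (nucleolin), NOL7 and RRP1 had no match and were not analysed here, and NOL11 and NOP14 were found only by transcript. The symbols are the whole rule and it has no threshold, but the set was picked with the levels of these same oocytes in view, so all values below are descriptions and none carries a test.

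BCB-positive oocytes (3 cells) keep the blue dye, and BCB-negative oocytes (3 cells) turn it colourless. The dye is reduced by way of glucose-6-phosphate dehydrogenase, and BCB-positive oocytes are generally taken as fully grown and BCB-negative oocytes as still growing. All 6 were Sus scrofa oocytes at the germinal vesicle stage without maturation culture, from antral follicles 3 to 6 mm wide, selected with at least 3 layers of cumulus and then stripped of cumulus and zona pellucida. Each library was 1 oocyte, and poly(A) RNA was primed with a 24-nt poly(dT) primer and amplified by PCR. The labels name no animal, age, breed or culture, so a class stands as 1 sample of 3 cells, and no p-value or standard error was computed.

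Ribosome assembly begins in the nucleolus, where RNA polymerase I makes a long precursor of the ribosomal RNAs. The small subunit processome, a large assembly of UTP and related proteins around the U3 small nucleolar RNA, folds and cuts the 18S part. Small nucleolar ribonucleoproteins (snoRNPs) add methyl groups and pseudouridines, the RNA exosome trims and degrades precursor ends, and separate factors build the large subunit. Growing mammalian oocytes make and store ribosomes, and in fully grown oocytes the nucleolus becomes compact and transcription of ribosomal RNA falls silent.

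Expected counts summed to between 7122749 and 9238987 per oocyte, and 10729 to 11751 genes had at least 1 FPKM (fragments per kilobase of transcript, relative to all mapped fragments). BCB-positive oocyte 3 stood apart: its mean Pearson correlation with the others, across all genes compared, was 0.874, against 0.905 to 0.915 for the other 5, and over the ribosome biogenesis genes it was 0.854, against 0.925 to 0.936. Genes are not independent replicates, so these correlations describe libraries only. The counts, the medians and most differences are therefore also given without that oocyte. Of 13 oocyte markers, 12 were listed and all 12 averaged at least 1 FPKM; their summed level was 15065 to 28839 FPKM in BCB-positive and 19607 to 31056 FPKM in BCB-negative oocytes. Of 15 cumulus and granulosa markers, 10 were listed, and their sum was 27.3 to 36.0 FPKM in BCB-positive and 20.6 to 31.1 FPKM in BCB-negative oocytes. INHBA supplied 19.8 to 31.9 FPKM of it in an oocyte. STAR was at 1.56, 1.79 and 0.40 FPKM in BCB-positive cells, against 0.05, 0.37 and 0.16 FPKM in the BCB-negative cells. Its classes narrowly did not overlap. INHA reached at most 1.54 FPKM and AMH 0.76 FPKM. The other listed markers of this kind stayed lower, with the aromatase gene CYP19A1 at most at 0.18 FPKM. Summed blood and immune markers (2 of 5 listed) were 2.93 to 4.60 FPKM in BCB-positive and 0.11 to 1.19 FPKM in BCB-negative oocytes, nearly all from CD3E, while PTPRC was at 0 in 5 oocytes and at 0.56 FPKM in BCB-positive oocyte 3. Summed stromal and endothelial markers (5 of 7 listed) were 3.76 to 4.50 FPKM in BCB-positive and 1.94 to 3.13 FPKM in BCB-negative oocytes. The part of these markers in the results was not tested.

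The 47 genes spanned a wide range of levels. Averaged over the 6 oocytes, 6 lay at or above 100 FPKM, 20 between 10 and 100 FPKM, 17 between 1 and 10 FPKM and 4 below 1 FPKM. The 5 most abundant, UTP23, EXOSC5, NPM1, IMP3 and NOP10, made up 65.0% of the summed mean FPKM. The sum over all 47 was 2387, 3299 and 3684 FPKM in BCB-positive oocytes 1, 2 and 3, against 2438, 2871 and 2231 FPKM in BCB-negative oocytes 1, 2 and 3. The classes overlapped in this sum, as they did without NPM1, at 2159, 2936 and 2634 FPKM in BCB-positive cells, against 2174, 2569 and 2048 FPKM in the BCB-negative cells. Levels went with transcript length: Spearman's rho between length and mean level was -0.37 across the 43 genes compared and -0.73 across the 19 small subunit genes, against -0.09 across all 11495 genes compared. These rho values are across genes that share libraries and are descriptions.

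**Figure D1:**
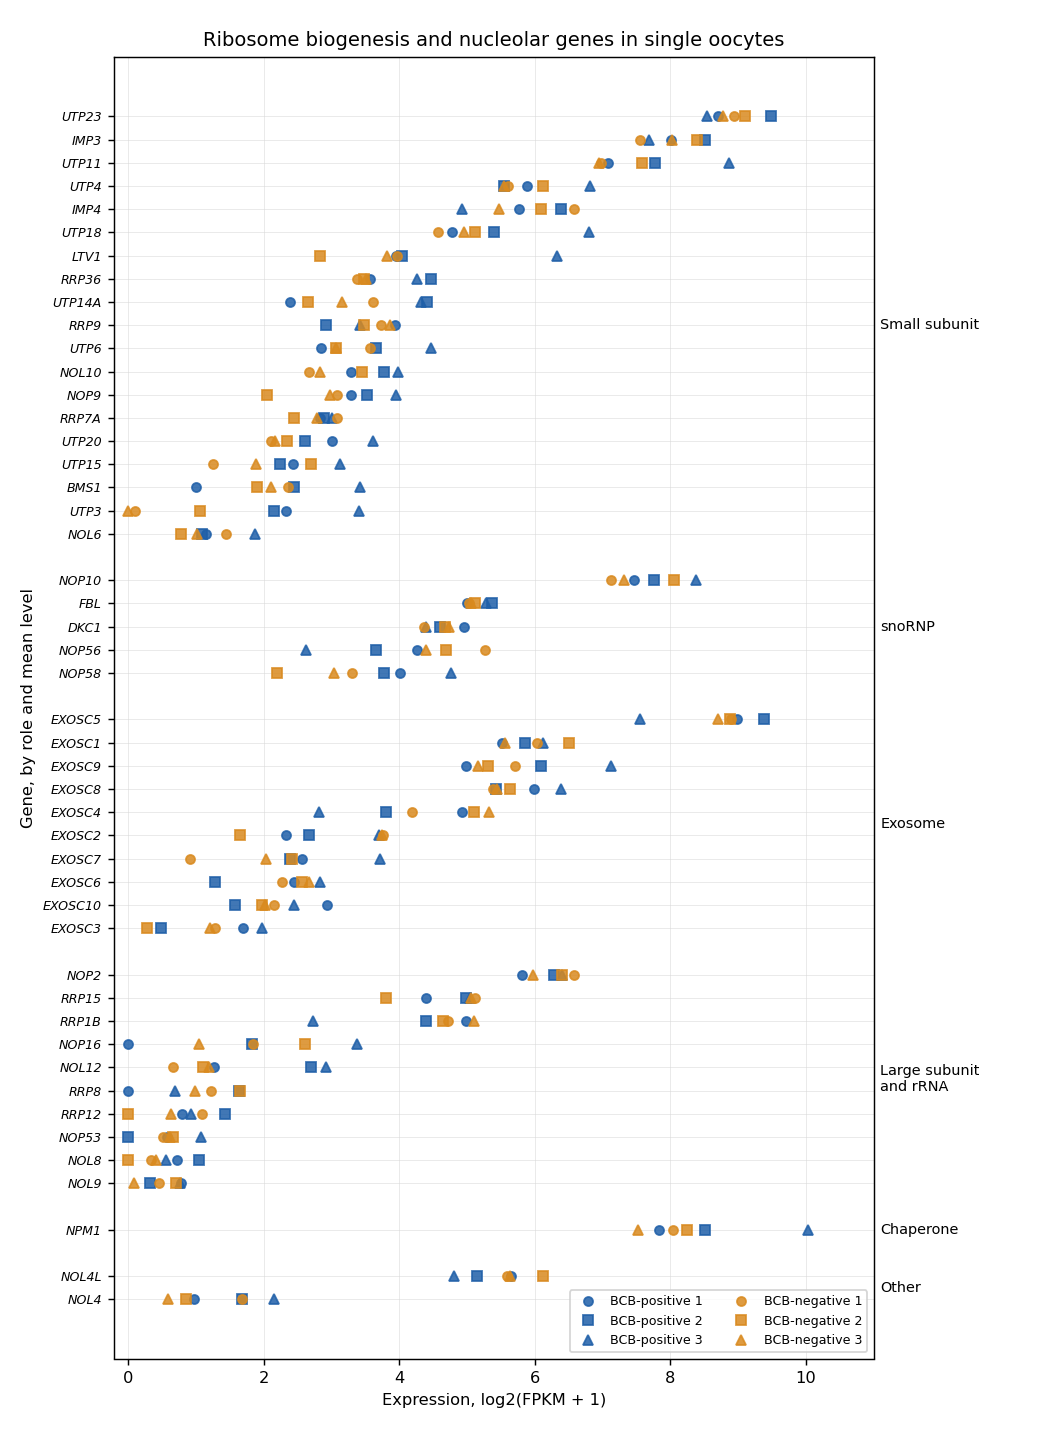
Level of each of the 47 genes in each oocyte, as log2(FPKM + 1), grouped by role and ordered by mean level. Blue symbols are BCB-positive and orange symbols BCB-negative oocytes, and the symbol's shape gives the oocyte number. Levels are near 0 for NOL9 and NOL8 and above 8 in every oocyte for UTP23. The highest point of all is NPM1 in BCB-positive oocyte 3, at 1049.7 FPKM. The blue triangle (BCB-positive oocyte 3) is the highest point for many small subunit genes and for NPM1.

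Between BCB-positive and BCB-negative oocytes, 43 of the 47 genes could be compared because their mean reached 1 FPKM; RRP12, NOP53, NOL8 and NOL9 fell below it. The difference is that of the class means of log2(FPKM + 1), BCB-positive minus BCB-negative, which understates the change of low genes, and the SD beside it pools the within-class spread over both classes. By this measure 14 of the 43 were at least 1.5-fold higher in BCB-positive oocytes, or 32.6%, against 18.9% of all genes compared, and 3 were at least 1.5-fold lower, against 9.46% of all genes. The median difference was 0.29 for the 43 genes and 0.11 for all genes. The SD between oocytes of the 43-gene median was 0.30, as large as the difference itself. Without BCB-positive oocyte 3 the median was 0.15, with 6 genes higher and 3 lower, against 0.05 and shares of 14.6% and 10.3% for all genes. The share of higher genes without it, 14.0%, was thus near that of all genes.

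In 7 of the 43 genes the classes did not overlap, with BCB-positive oocytes higher for 6 and lower for 1, where 7.44% of all genes were higher and 4.03% lower without overlap. All 7 also differed at least 1.5-fold. The 6 higher genes, or 14.0%, were UTP3, NOP58, NOL12, NOP9, UTP20 and RRP36, where 5.75% of all genes met both conditions. UTP3 reached the mean of 1 FPKM only through its BCB-positive oocytes, as its BCB-negative mean was 0.39 FPKM. Its place in this count thus leans on the class where it is high. The lower gene was NOP56, or 2.33%, near the 2.66% of all genes that met both conditions in that direction. Without BCB-positive oocyte 3 the first 5 of the higher genes and NOP56 still met the rule, and RRP36 missed it narrowly at 0.57, where the 1.5-fold limit is 0.58. A gene without overlap cannot come to overlap when an oocyte is left out, so only its size was tried anew. The share of all genes meeting both conditions without that oocyte is not given here, so these counts have no background.

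**Figure D2:**
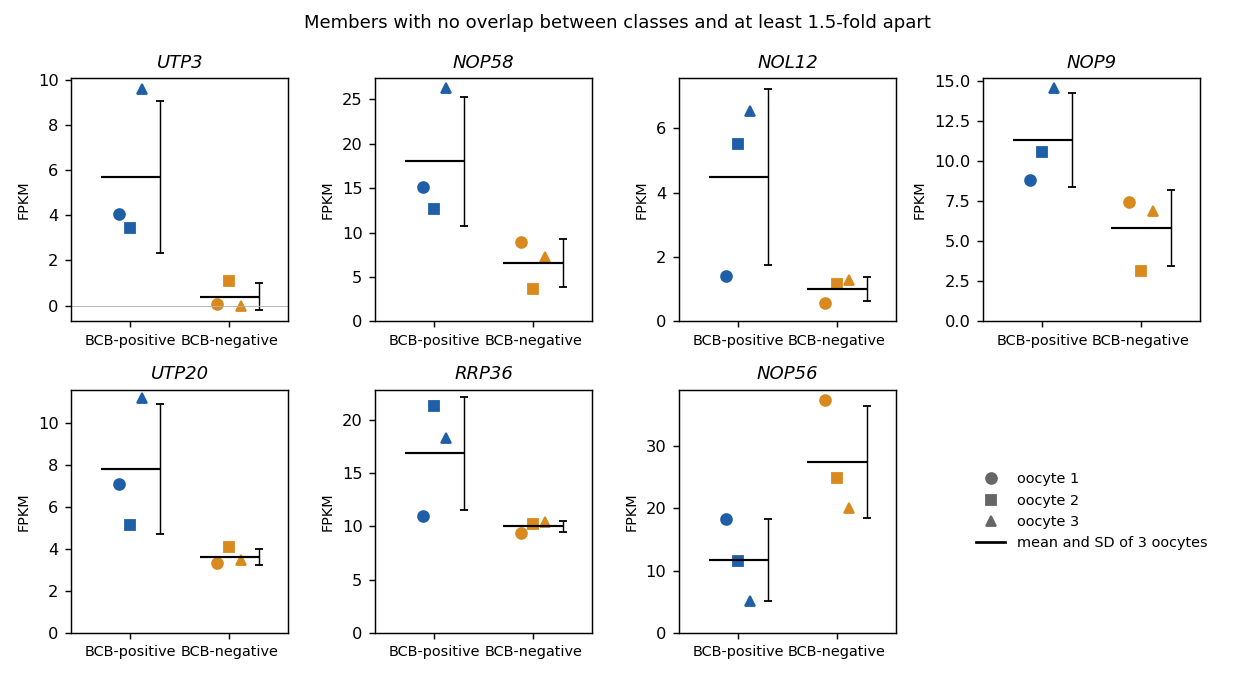
FPKM of the 7 genes whose classes did not overlap and differed at least 1.5-fold, BCB-positive oocytes left and BCB-negative oocytes right. Each point is an oocyte, lines are class means and bars the SD of 3 oocytes (the vertical axis holds 0 in every panel). The highest BCB-negative oocyte lies just under the lowest BCB-positive one for NOL12 and RRP36, and for UTP3 all BCB-negative oocytes lie near 0.

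UTP3 (NCBI gene 100217385), also known as SAS10, is a subunit of the small subunit processome. BCB-positive oocytes 1, 2 and 3 had 4.05, 3.44 and 9.57 FPKM, against 0.08, 1.08 and 0 FPKM in BCB-negative oocytes 1, 2 and 3. Every BCB-positive oocyte was more than 3 times the highest BCB-negative one, and the gap between classes was the widest of the 43 genes on the log2 scale. The difference was 2.24 (SD 0.63), 1.85 without BCB-positive oocyte 3, and 4.24 with a pseudocount of 0.1 FPKM, a size that depends on how values near 0 are handled. The reads behind it were few: 234 expected counts (95% exact Poisson interval 205 to 266) in BCB-positive and 14 (7.65 to 23.5) in BCB-negative oocytes. Reads were amplified without molecular identifiers, so this and the other intervals cover counting error only.

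UTP20 (NCBI gene 100524087), a very long helical scaffold protein of the processome, was at 7.09, 5.14 and 11.2 FPKM in BCB-positive cells, against 3.32, 4.07 and 3.49 FPKM in the BCB-negative cells. The BCB-negative oocytes lay close together and all 3 BCB-positive oocytes lay above them, with a difference of 0.87 (SD 0.36), or 0.61 without BCB-positive oocyte 3. It rested on 2348 expected counts in BCB-positive and 949 in BCB-negative oocytes. UTP20 overlaps ARL1 in the reference annotation and no source used here says whether counting used strand, so its value is uncertain. ARL1, an abundant Golgi GTPase, overlapped between classes, with a difference of 0.15.

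NOP9 (NCBI gene 100154880), an RNA-binding protein of early 18S maturation in yeast, was at 8.81, 10.52 and 14.56 FPKM in BCB-positive cells, against 7.45, 3.13 and 6.86 FPKM in the BCB-negative cells. BCB-negative oocyte 2 was the lowest by a wide margin, and the difference of 0.89 (SD 0.47) dropped to 0.57 without it, just under the limit. RRP36 (NCBI gene 100141407), needed for early cleavages of the precursor, was at 10.9, 21.3 and 18.3 FPKM in BCB-positive cells, against 9.38, 10.20 and 10.38 FPKM in the BCB-negative cells. BCB-positive oocyte 1 lay barely above the BCB-negative oocytes. The difference of 0.65 (SD 0.34) was 0.47 without BCB-positive oocyte 2 and 0.55 under size factor scaling, both under the limit.

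The small subunit genes as a group had the largest median difference of the role groups with 2 or more genes, 0.57 over 19 genes, with an SD between oocytes of 0.34. Of the 19, 16 had a higher mean in BCB-positive oocytes, as did 6669 of all 11495 genes. The difference was at least 1.5-fold for 9 higher genes and 0 lower genes, where 18.9% of all genes were higher and 9.46% lower. Without BCB-positive oocyte 3 the median was 0.26 and 3 of the 19 genes, UTP3, UTP20 and NOP9, were at least 1.5-fold higher, a share near the 14.6% of all genes. That oocyte was the highest of the 6 for 12 of the 19 genes, where it was the highest for 32.6% of all genes.

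Without that oocyte the difference of several small subunit genes was much smaller or changed direction. LTV1, which acts late in export and maturation of the small subunit, was at 14.5, 15.5 and 79.6 FPKM in BCB-positive cells, against 14.6, 6.10 and 13.2 FPKM in the BCB-negative cells. BCB-positive oocytes 1 and 2 were next to BCB-negative oocyte 1, and the difference of 1.24 (SD 1.05) was 0.46 without BCB-positive oocyte 3. UTP11 was at 134, 218 and 466 FPKM in BCB-positive cells, against 125, 192 and 123 FPKM in the BCB-negative cells, differing by 0.74, or by 0.26 without BCB-positive oocyte 3. BMS1, a GTPase of the processome, was at 1.00, 4.44 and 9.68 FPKM in BCB-positive cells, against 4.12, 2.76 and 3.30 FPKM in the BCB-negative cells. BCB-positive oocytes held both its lowest and its highest level, and its difference of 0.16 (SD 0.87) was -0.40 without BCB-positive oocyte 3.

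UTP4 and UTP15 belong to the UTPA complex, which binds the precursor first. UTP4 was at 58.3, 46.0 and 112 FPKM in BCB-positive cells, against 47.9, 68.4 and 45.9 FPKM in the BCB-negative cells, and UTP15 was at 4.39, 3.73 and 7.75 FPKM in BCB-positive cells, against 1.39, 5.52 and 2.71 FPKM in the BCB-negative cells. Both overlapped between classes. The difference without BCB-positive oocyte 3 was -0.04 for UTP4, against 0.33 with it, and 0.38 for UTP15, against 0.65 with it. In the UTPB complex the difference was 0.42 for UTP6 and 0.78 for UTP18; leaving out BCB-positive oocyte 3 made it 0.01 for UTP6 and 0.21 for UTP18. IMP3 and IMP4, partners in the MPP10 complex, lay at different levels and did not separate the classes. IMP3 was at 258, 364 and 206 FPKM in BCB-positive cells, against 187, 336 and 261 FPKM in the BCB-negative cells, a difference of 0.08 (SD 0.42), or 0.27 without BCB-positive oocyte 3. IMP4 averaged 55.3 ± 26.9 FPKM in BCB-positive and 68.7 ± 25.9 FPKM in BCB-negative oocytes (SD, n = 3 oocytes each) and overlaps the abundant gene CCDC115, so its value is uncertain. Its difference was -0.36, or 0.03 without BCB-positive oocyte 3.

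The most abundant gene of the set was UTP23, which helps release the snoRNA snR30 from the precursor in yeast. It was at 414, 717 and 373 FPKM in BCB-positive cells, against 490.2, 550.4 and 436 FPKM in the BCB-negative cells. The classes overlapped, with a difference of -0.03 (SD 0.38), or 0.15 without BCB-positive oocyte 3. A second gene ID, 100738842, had identical values in all 6 oocytes and the same length of 1113 bases, with the reads split evenly between them. The 2 together averaged 994 FPKM, so the level of UTP23 is uncertain. Of the remaining small subunit genes, RRP7A, RRP9, NOL6 and UTP14A differed by less than their SD. RRP7A differed by 0.13 (SD 0.23) and RRP9, a protein of the U3 particle, by -0.27 (SD 0.39). NOL6 differed by 0.29 (SD 0.39), or by 0.04 without BCB-positive oocyte 3. UTP14A differed by 0.57 (SD 0.87), or by 0.26 without that oocyte. For NOL10 the difference of 0.70 was larger than its SD of 0.38, though the classes overlapped. Leaving out BCB-positive oocyte 3 made it 0.55.

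Among the snoRNP proteins, the 2 paired core subunits of the box C/D particle, NOP58 and NOP56, lay in opposite directions. NOP58 (NCBI gene 100156132) was at 15.1, 12.65 and 26.2 FPKM in BCB-positive cells, against 8.89, 3.60 and 7.22 FPKM in the BCB-negative cells. All BCB-positive oocytes were higher, and the difference was 1.33 (SD 0.55), or 1.04 without BCB-positive oocyte 3. NOP56 (NCBI gene 100512446) was at 18.3, 11.6 and 5.15 FPKM in BCB-positive cells, against 37.5, 24.85 and 20.1 FPKM in the BCB-negative cells. All BCB-positive oocytes were lower, though oocyte 1 only narrowly, and the difference was -1.27 (SD 0.67), or -0.82 without BCB-positive oocyte 3. The ratio of NOP58 to NOP56 FPKM was 0.829, 1.09 and 5.09 in BCB-positive oocytes 1, 2 and 3, against 0.237, 0.145 and 0.360 in BCB-negative oocytes 1, 2 and 3. The lowest BCB-positive ratio was more than 2 times the highest BCB-negative one. Because the 2 genes separated the classes in opposite directions, their ratio had to separate them too and adds no further support.

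NOP58 rested on 1301 expected counts (95% exact Poisson interval 1231 to 1374) in BCB-positive and 410.0 (371 to 452) in BCB-negative oocytes, and NOP56 on 536 (492 to 583) in BCB-positive and 1158 (1092 to 1227) in BCB-negative oocytes. NOP56 is less certain than NOP58, because its expected counts were fractional in all 6 oocytes, as when reads are shared with other sequences, and it overlaps IDH3B in the reference annotation. IDH3B, a subunit of mitochondrial isocitrate dehydrogenase, was at 30.4, 22.7 and 26.9 FPKM in BCB-positive cells, against 45.05, 18.0 and 25.7 FPKM in the BCB-negative cells, with a difference of -0.06. Its classes overlapped, unlike those of NOP56.

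FBL, fibrillarin, the methyltransferase of the same box C/D particle, was the steadiest gene of the 3. It was at 31.0, 40.5 and 37.8 FPKM in BCB-positive cells, against 31.7, 33.8 and 32.4 FPKM in the BCB-negative cells. The classes overlapped, and the difference of 0.15 was about the SD of 0.14. In the box H/ACA particle, which makes pseudouridine, the pseudouridine synthase DKC1 was at 29.9, 23.3 and 20.1 FPKM in BCB-positive cells, against 19.55, 24.6 and 25.7 FPKM in the BCB-negative cells. BCB-positive oocytes held its highest level and BCB-negative oocytes its lowest, with a difference of 0.06 (SD 0.24), or 0.18 without BCB-positive oocyte 3. The small H/ACA protein NOP10 was at 175, 216 and 332 FPKM in BCB-positive cells, against 138, 266 and 158 FPKM in the BCB-negative cells, a difference of 0.37 (SD 0.48) with overlap, or 0.11 without BCB-positive oocyte 3. The median over the 5 snoRNP genes was 0.15, and 0.12 without BCB-positive oocyte 3.

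The RNA exosome is built of a ring (EXOSC4 to EXOSC9), a cap (EXOSC1, EXOSC2 and EXOSC3) and the nuclear ribonuclease EXOSC10. Although ring and cap subunits are present once each in a complex, their transcripts spanned a 319-fold range of mean FPKM, with EXOSC5 at 454 and EXOSC3 at 1.42 FPKM. EXOSC3 overlaps the more abundant gene TRMT10B, so its value and the size of this range are uncertain. The nuclease EXOSC10 averaged 4.38 ± 2.34 FPKM in BCB-positive and 3.15 ± 0.27 FPKM in BCB-negative oocytes (SD, n = 3 oocytes each). EXOSC5 was at 504, 670.0 and 186 FPKM in BCB-positive cells, against 475, 472 and 415 FPKM in the BCB-negative cells. It was lowest in BCB-positive oocyte 3 and highest in BCB-positive oocyte 2, and its difference of -0.19 (SD 0.69) was 0.36 without BCB-positive oocyte 3.

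None of the 10 exosome genes separated the classes. EXOSC7 came nearest among the higher ones, at 4.92, 4.23 and 12.2 FPKM in BCB-positive cells, against 0.88, 4.35 and 3.10 FPKM in the BCB-negative cells. Its overlap was slight, between BCB-positive oocyte 2 and BCB-negative oocyte 2, and the difference was 1.10 (SD 0.75), or 0.69 without BCB-positive oocyte 3. EXOSC4 was at 29.5, 13.0 and 6.08 FPKM in BCB-positive cells, against 17.3, 33.5 and 39.0 FPKM in the BCB-negative cells, a difference of -1.02 (SD 0.86), or -0.51 without that oocyte. EXOSC9 was at 30.7, 67.0 and 138 FPKM in BCB-positive cells, against 51.3, 38.7 and 34.8 FPKM in the BCB-negative cells. Its difference of 0.67 (SD 0.78) was 0.14 without BCB-positive oocyte 3, and it is uncertain because it overlaps the cyclin gene CCNA2, which was also highest in that oocyte at 188 FPKM. The other subunits differed by -0.31 (EXOSC6), -0.20 (EXOSC1), -0.16 (EXOSC2), 0.27 (EXOSC10), 0.45 (EXOSC8) and 0.46 (EXOSC3). With that oocyte left out, the difference was -0.64 for EXOSC6, -0.35 for EXOSC1, -0.56 for EXOSC2, 0.21 for EXOSC10, 0.22 for EXOSC8 and 0.17 for EXOSC3. The median of the 10 genes was 0.06 against a between-oocyte SD of 0.32, with 5 means higher and 5 lower, and it was 0.15 without BCB-positive oocyte 3 and -0.03 under size factor scaling.

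BCB-positive oocyte 3 was the highest of the 6 oocytes for 5 of the 10 exosome genes (EXOSC3, EXOSC6, EXOSC7, EXOSC8 and EXOSC9), where it was the highest for 32.6% of all genes. It was the lowest for 2 (EXOSC4 and EXOSC5), near its share of 18.9% of all genes, and 4 other oocytes were also the lowest for 2 exosome genes each. Relative to the mean of the other 5 oocytes on the log2 scale, EXOSC9 was 1.67 higher and EXOSC7 1.66 higher in it, while EXOSC4 differed by -1.85 and EXOSC5 by -1.42.

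Genes of large subunit assembly and ribosomal RNA modification showed no common direction. The median over 6 genes was -0.13, with 2 means higher and 4 lower, and it was -0.20 without BCB-positive oocyte 3. Leaving out BCB-positive oocyte 1 instead made it 0.19. NOL12 (NCBI gene 100737940), a nucleolar RNA-binding protein, was at 1.40, 5.52 and 6.54 FPKM in BCB-positive cells, against 0.58, 1.15 and 1.29 FPKM in the BCB-negative cells. Its classes were separated by a small margin, between BCB-positive oocyte 1 and BCB-negative oocyte 3, and it differed by 1.31 (SD 0.67), or by 1.00 without BCB-positive oocyte 3. NOL12 rested on 107 expected counts (95% exact Poisson interval 87.7 to 129) in BCB-positive and 20.4 (12.2 to 30.9, from the rounded count) in BCB-negative oocytes. NOP2, a methyltransferase of 28S ribosomal RNA, was at 54.9, 76.75 and 83.8 FPKM in BCB-positive cells, against 95.2, 83.3 and 61.75 FPKM in the BCB-negative cells. The classes overlapped in part, with a difference of -0.15 (SD 0.32), or -0.28 without BCB-positive oocyte 3. RRP1B was at 30.7, 20.05 and 5.65 FPKM in BCB-positive cells, against 25.3, 24.1 and 33.4 FPKM in the BCB-negative cells, and its difference of -0.79 (SD 0.84) was -0.13 without BCB-positive oocyte 3. RRP15 differed by 0.15 (SD 0.58), RRP8 by -0.52 (SD 0.63) and NOP16 by -0.10 (SD 1.32). With BCB-positive oocyte 3 left out, the difference was 0.03 for RRP15, -0.47 for RRP8 and -0.92 for NOP16. NOP16 was at 0 in BCB-positive oocyte 1 and highest in BCB-positive oocyte 3, and it overlaps the more abundant gene ARL10, so its value is uncertain.

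NPM1, nucleophosmin, an abundant histone and ribosome chaperone of the nucleolus, was at 227, 363 and 1049.7 FPKM in BCB-positive cells, against 263, 302 and 184 FPKM in the BCB-negative cells. BCB-positive oocyte 1 lay within the range of the BCB-negative oocytes and BCB-positive oocyte 3 lay far above all others. The difference was 0.85 (SD 0.84), and 0.23 without BCB-positive oocyte 3. Its 2 listed transcripts kept nearly constant shares: the major one held 64.5%, 61.5% and 64.7% of NPM1 FPKM in BCB-positive cells, against 62.6%, 67.6% and 65.6% in the BCB-negative cells. NOL4L, which matched the symbol pattern but has no established part in ribosome assembly, was at 49.4, 34.5 and 26.9 FPKM in BCB-positive cells, against 47.2, 68.9 and 48.7 FPKM in the BCB-negative cells. The classes overlapped, with a difference of -0.58 (SD 0.37), or -0.38 without BCB-positive oocyte 3. NOL4, the other gene of that kind, was low, at 2.21 ± 1.25 FPKM in BCB-positive and 1.17 ± 0.91 FPKM in BCB-negative oocytes (SD, n = 3 oocytes each), and differed by 0.56, or by 0.29 without BCB-positive oocyte 3.

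Each oocyte was also set against the others. BCB-positive oocyte 3 was the highest of the 6 for 23 of the 43 genes, or 53.5%, against 32.6% of all genes compared, and the lowest for 7, or 16.3%, against 18.9% of all genes. It lay at least 1.5-fold above the mean of the other 5 oocytes for 26 of the 43 genes, where 33.5% of all genes did, and at least 1.5-fold below it for 6, where 18.8% of all genes did. The median deviation of the 43 genes from their means was -0.07, 0.08 and 0.68 in BCB-positive oocytes 1, 2 and 3, against -0.03, -0.07 and -0.27 in BCB-negative oocytes 1, 2 and 3. For all genes it was 0.00, 0.03 and 0.15 in BCB-positive oocytes, against -0.01, -0.04 and -0.06 in BCB-negative oocytes. The largest excesses in BCB-positive oocyte 3 over the other 5 were 2.61 for LTV1, 2.27 for UTP3 and 2.00 for NPM1, and the largest deficits were -2.04 for RRP1B, -1.85 for EXOSC4 and -1.84 for NOP56. That oocyte also had the highest total count and the most genes at 1 FPKM or above. Its 10 most abundant genes held 9.80% of its expected counts, against 15.6% to 19.0% in the other 5 oocytes, and its listed FPKM summed to 668430, against 784781 to 811744. Its oocyte marker sum, 15065 FPKM, was the lowest of the 6, but single markers went both ways. ZP3, ZP4, MOS, FIGLA, ZAR1 and NPM2 were lowest in that oocyte. ZP2, GDF9, DAZL and DDX4 were highest in it, at 2255, 225, 4.79 and 72.7 FPKM. The part of depth and of these differences in the values above was not tested.

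**Figure D3:**
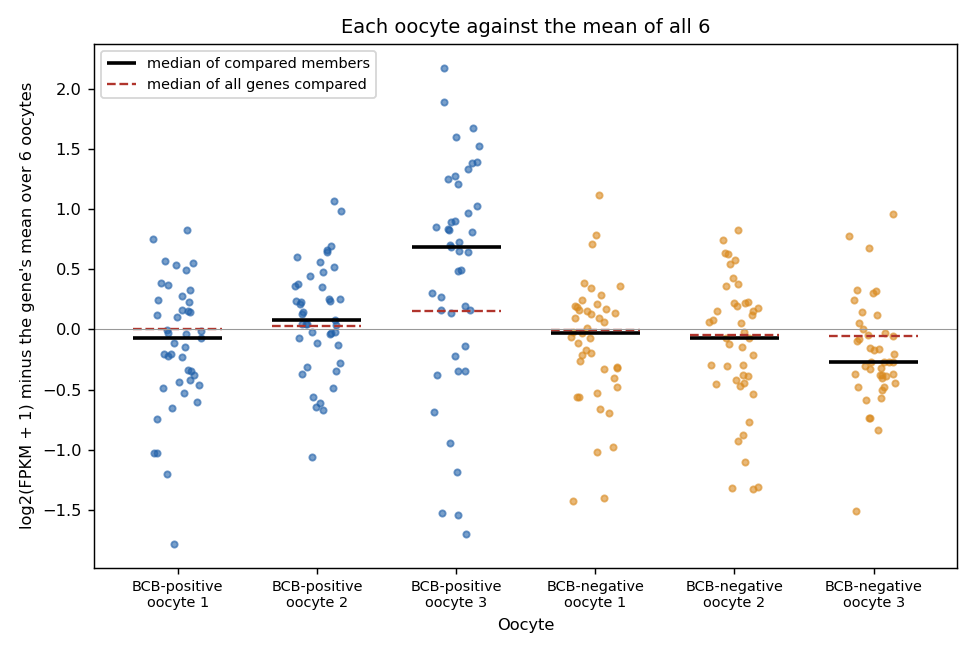
Deviation of each of the 43 genes in each oocyte from the gene's own mean over 6 oocytes, in log2(FPKM + 1). Points are genes, black bars their median and dashed red bars the median of all 11495 genes compared. The black bar stands at 0.68 in BCB-positive oocyte 3 and between -0.27 and 0.08 in the other oocytes.

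**Figure D4:**
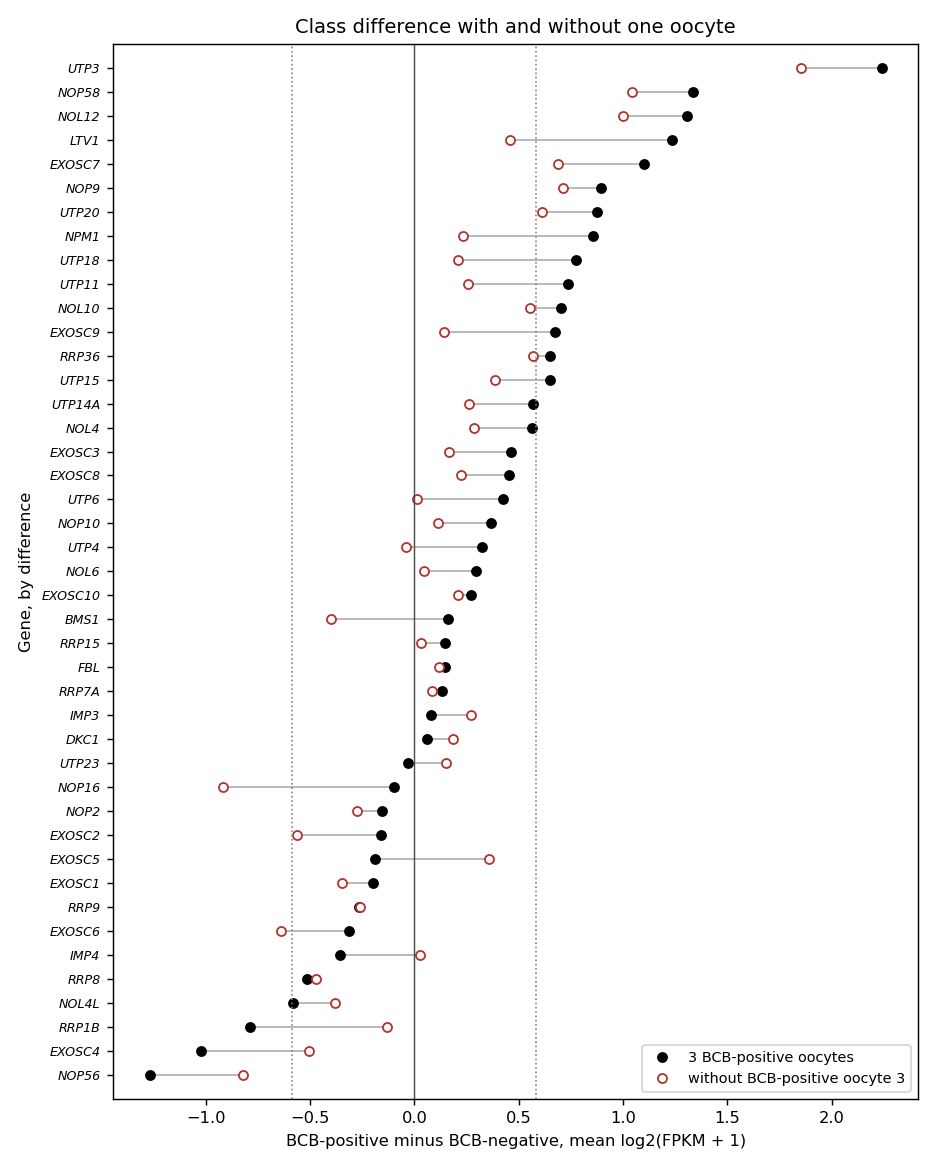
BCB-positive minus BCB-negative difference of mean log2(FPKM + 1) for each of the 43 genes, with all oocytes (filled) and without BCB-positive oocyte 3 (open). Dotted lines mark the 1.5-fold limit. Most open points lie nearer 0 than the filled ones, for example 0.46 against 1.24 for LTV1. UTP3, NOP58, NOL12, NOP9, UTP20 and EXOSC7 stay beyond the limit on the right and NOP56 on the left. EXOSC6 and NOP16 lie beyond the left limit only without that oocyte.

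A wider list held other ribosome biogenesis genes, outside the symbol rule. Of its 87 genes compared, 25 were at least 1.5-fold higher in BCB-positive oocytes, or 28.7%, and 3 were lower, or 3.45%, against 18.9% and 9.46% of all genes, and the median was 0.31. Without BCB-positive oocyte 3 the median was 0.11, with 9 genes higher, or 10.3%, and 6 lower, or 6.90%, both below the 14.6% and 10.3% of all genes. Classes did not overlap and were 1.5-fold apart for 5 higher genes and 1 lower gene, shares of 5.75% and 1.15%, against 5.75% and 2.66% of all genes. Neither share exceeded that of all genes. Without BCB-positive oocyte 3, 3 higher genes and 2 lower genes met both conditions, or 3.45% and 2.30%. The share of all genes for that comparison is not given here, so these counts have no background. NIP7, a factor of both subunits, was at 4.06, 9.47 and 8.88 FPKM in BCB-positive cells, against 2.67, 1.39 and 3.18 FPKM in the BCB-negative cells, a difference of 1.28, or 1.13 without BCB-positive oocyte 3. In the UTPA complex the difference was 1.08 for WDR75, or 0.57 leaving that oocyte out. For HEATR1, which overlaps LGALS8 and is uncertain, it was 0.89, or 0.55 leaving that oocyte out.

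SKIV2L2, the helicase that feeds the nuclear exosome, was at 48.5, 45.8 and 130.3 FPKM in BCB-positive cells, against 26.8, 29.1 and 37.4 FPKM in the BCB-negative cells. Its difference was 1.08, or 0.60 without BCB-positive oocyte 3, and it is uncertain because it overlaps the abundant gene PLPP1. AATF, of early small subunit assembly, differed by 0.59, or by 0.27 without that oocyte. The lower gene was WDR18, of a complex that acts on the large subunit, at 17.51, 20.67 and 10.20 FPKM in BCB-positive cells, against 23.00, 35.38 and 21.06 FPKM in the BCB-negative cells, a difference of -0.70, or -0.42 without that oocyte. NPM2, the oocyte nucleoplasmin, was more abundant than NPM1 in 5 of the 6 oocytes and less abundant in BCB-positive oocyte 3, at 1316, 1778 and 523 FPKM in BCB-positive cells, against 1812, 1571 and 1375 FPKM in the BCB-negative cells. That oocyte had the lowest NPM2 and the highest NPM1 level, and NPM2 differed by -0.56 (SD 0.66), or by -0.04 without that oocyte.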

How the data were processed

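Single pig oocytes were profiled by RNA sequencing, with 1 library for each of 3 BCB-positive and 3 BCB-negative oocytes. Per the submitters' processing notes, RSEM, BWA and Cufflinks were used with the build Sscrofa10.2; no source used here gives their roles or versions. The deposited expected counts are estimated per gene or transcript and can be fractional. Per the file headers, the other deposited value is FPKM, which relates fragments to transcript length and to the library's mapped fragments. Lengths in bases come from the same deposited files. Genes absent from a file count as 0.

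Symbols were matched by NCBI gene ID to RefSeq genes of Sscrofa11.1, used for names and overlaps only; 13936 of 19300 IDs matched. Differences of mean log2(FPKM + 1) were computed over 11495 genes averaging 1 FPKM or more, with Python 3.11.15, numpy 2.4.6, pandas 2.3.3 and scipy 1.17.1. Calculations were tested on simulated data. Genes were called at 1.5-fold, and classes were said not to overlap where all oocytes of one lay above all of the other. Intervals on summed counts (rounded) are 95% exact Poisson intervals.

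The genes, role groups, wider list and markers were chosen with earlier results of these data known. Named with the value in every oocyte were genes without overlap and 1.5-fold apart, the 5 most abundant, the genes listed by symbol, and the most abundant and most different gene of each role group; UTP4, UTP11, UTP15, EXOSC4, EXOSC9, RRP1B, NOL8 and NOL11 were added after their values were seen. From the wider list came genes without overlap and 1.5-fold apart, and NPM2. Alternatives were another pseudocount, scaling, unit, filter, fold limit and class summary, and leaving out each oocyte.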

Additional observations from a re-analysis of the deposited data

How the results depend on the processing

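UTP3, NOP58, NOL12, NOP56 and UTP20 stayed apart and 1.5-fold different under every alternative that kept them in the comparison and the 1.5-fold limit; a minimum mean of 5 FPKM removed UTP3 and NOL12. At a 2-fold limit 5 of the 43 genes were higher, 3 of them without overlap (UTP3, NOP58 and NOL12), and 1 of the wider list was lower, with 5 of it higher, 3 of these without overlap and 0 lower without overlap. With a pseudocount of 0.1 FPKM 6 genes were lower and 5 of the wider list, and the large subunit median was -0.50. CPM from the counts gave 5 lower genes. Under size factor scaling 11 genes of the set were higher and 4 lower, and the median of the set was 0.22. The median of all genes was then 0.023, the snoRNP median 0.047 and the exosome median -0.03. A common FPKM sum put the median of all genes at 0.19. A minimum of 5 FPKM lowered the median of the set to 0.15, against 0.09 for all genes. It left 10 genes of the set higher, 4 of them without overlap, and put the exosome median at -0.17. The same minimum left 1 lower gene in the wider list and put the other genes of the symbol pattern at -0.58, where only NOL4L remained. With class medians 11 genes of the set were higher, and NOP9 fell under the limit, while 0 of the wider list were lower without overlap. No share of all genes is given for these alternatives, so their counts show only how the lists change.

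Leaving out 1 oocyte at a time gave 6 to 19 genes higher and 3 to 6 lower, 5 to 15 higher and 1 to 4 lower without overlap, and in the wider list 9 to 35 higher, 3 to 6 lower, 3 to 21 higher and 1 to 3 lower without overlap. Fewer oocytes overlap less often. For oocytes left out, shares of all genes are given above only at the 1.5-fold limit without BCB-positive oocyte 3. The other counts have no background here and show only how the lists change. The lowest counts of higher genes came without BCB-positive oocyte 3 and the highest without BCB-positive oocyte 1. Dropping BCB-negative oocyte 2 left 10 genes higher without overlap. The median of the 43 genes ranged from 0.15 to 0.42, the small subunit median from 0.26 to 0.83, the snoRNP median from 0.082 to 0.26, the large subunit median from -0.41 to 0.19 and the exosome median from 0.045 to 0.39. The causes were not tested.

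The labels do not say whether replicate numbers pair the oocytes, and pairing was not tested. Deviations of same-numbered oocytes correlated at -0.07, 0.03 and -0.07 across genes, against -0.03 to 0.10 for other-numbered oocytes of the 2 classes. With a replicate block the difference of means is the same, so the median of the 43 genes stayed at 0.29, and no test was made in either case.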

Other observations

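Some genes of the set fell outside the comparison above. NOL8, which averaged under 1 FPKM, was at 0.65, 1.06 and 0.48 FPKM in BCB-positive cells, against 0.27, 0 and 0.33 FPKM in the BCB-negative cells; its classes did not overlap, on 61 expected counts in BCB-positive and 15 in BCB-negative oocytes. RRP12 averaged 0.835 FPKM over the 6 oocytes, NOP53 0.527 FPKM and NOL9 0.455 FPKM, and their classes overlapped. NOL11 and NOP14 had no matching gene ID, and their transcripts were found under other IDs when the accession version was left out. NOL11, a UTPA-associated protein, was at 1.43, 2.38 and 7.98 FPKM in BCB-positive cells, against 2.09, 6.93 and 2.15 FPKM in the BCB-negative cells, and NOP14 reached at most 0.64 FPKM. Adding them was an alternative chosen after seeing the data. NOP14 stayed under the mean of 1 FPKM, so only NOL11 entered the comparison. That left 6 higher genes and 1 lower gene without overlap and a median of 0.28.

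Of 10 genes of the set with several listed transcripts, 5 reached 5 FPKM in each oocyte, and 0 of these had a transcript share that separated the classes by 20 percentage points or more. UTP6 came from its shorter transcript alone in 3 oocytes, while BCB-negative oocyte 2 had only the longer one, at 7.38 FPKM. For DKC1, the shorter transcript held 8.39%, 37.9% and 0% of FPKM in BCB-positive cells, against 27.0%, 8.16% and 0% in the BCB-negative cells.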
